A study of Mus musculus with 6 samples.

Results

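The Toll-like receptors examined here are the 10 genes *Tlr1* to *Tlr9* and *Tlr13*, found by their symbols in the gene annotation, out of 49315 genes counted. They were measured by RNA sequencing in liver F4/80-positive cells, sorted with magnetic beads and enriched for Kupffer cells, the macrophages that reside in the liver. One RNA library was made per mouse, from 3 WT and 3 *Lpcat3KOMac* mice. All 6 mice ate a high-fat diet (HFD, 60% fat) for 16 weeks, begun at an age of 8 to 12 weeks. No other treatment is named for these mice in the sources used here. *Lpcat3KOMac* mice were Lpcat3 fl/fl with 1 LysM Cre allele, and their WT littermates were Lpcat3 fl/fl with LysM +/+, so that both genotypes carried the floxed alleles on a C57BL/6N background. The study used males and females, and the sex of the 6 sequenced mice is not given in the sources used here. The Cre is expressed from the *Lyz2* (lysozyme M) locus and acts in myeloid cells in general, not in Kupffer cells alone.

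Toll-like receptors are membrane proteins that recognize microbial molecules through an outward horseshoe of leucine-rich repeats and signal through an inward TIR domain. TLR1, TLR2, TLR4, TLR5 and TLR6 sit mainly at the cell surface and bind lipoproteins, lipopolysaccharide or flagellin. TLR3, TLR7, TLR8, TLR9 and TLR13 sit in endosomes, where they meet nucleic acids. All but TLR3 signal through the adaptor MYD88. TLR3 uses the adaptor TRIF instead, and TLR4 uses both. Kupffer cells line the sinusoids that receive blood from the gut, and so meet bacterial products that enter through the portal vein. *Lpcat3* encodes a lysophospholipid acyltransferase that places arachidonic acid and other polyunsaturated fatty acids in membrane phospholipids. The comparison of genotypes therefore asks whether loss of *Lpcat3* in these cells goes with another level of receptor RNA.

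Levels below are in CPM, here counts scaled for library size and composition by the TMM method, and values run from mouse 1 to mouse 3 of each genotype. *Lpcat3* was at 85.0, 66.2 and 61.2 CPM in WT and at 19.5, 33.3 and 19.4 CPM in *Lpcat3KOMac* libraries. The genotypes did not overlap, and the log2 fold change, here always *Lpcat3KOMac* against WT, was -1.56 with a standard error (SE) of 0.26. *Lyz2*, the gene that carries the Cre, had a log2 fold change of -1.42 (SE 0.30). Neither passed edgeR's adjusted p under 0.05, a threshold that 0 of the 16134 genes tested passed. All 6 Kupffer cell markers (*Adgre1*, *Clec4f*, *Timd4*, *Cd5l*, *Vsig4*, *Marco*) were detected and summed to 24938 to 34015 CPM in WT and 18864 to 27224 CPM in *Lpcat3KOMac* libraries. *Clec4f* alone was lower in every *Lpcat3KOMac* library than in every WT library, at 6449 to 8331 against 8772 to 12171.5 CPM. The 5 hepatocyte transcripts summed to 1730 to 19288 CPM in WT and 4337 to 12496 CPM in *Lpcat3KOMac* libraries, highest in WT mouse 1 and *Lpcat3KOMac* mouse 2. Markers of liver endothelial cells summed to 795 to 1063 CPM. Neutrophil, monocyte, stellate and B cell lists each summed to at most 157 CPM, and conventional dendritic cell markers to at most 54.4 CPM. Plasmacytoid dendritic cell and T or NK cell lists reached at most 3.57 CPM. In such bulk libraries, fewer cells of a type and less RNA per cell cannot be told apart.

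*Tlr1* and *Tlr6* encode the partners with which TLR2 recognizes triacylated and diacylated lipoproteins, and they lie beside each other on the minus strand of chromosome 5. They are the 1 pair of members whose transcripts share long identical stretches, which limits how well their counts can be kept apart. The longest shared run was 229 bases, all coding, at chr5:64925537-64925765 in *Tlr1* and chr5:64953828-64954056 in *Tlr6* (GRCm38). It covered coding bases 1468 to 1696 of 2385 in *Tlr1* and 1507 to 1735 of 2418 in *Tlr6*, and is shown in the coding direction:
Tlr1 and Tlr6 shared run: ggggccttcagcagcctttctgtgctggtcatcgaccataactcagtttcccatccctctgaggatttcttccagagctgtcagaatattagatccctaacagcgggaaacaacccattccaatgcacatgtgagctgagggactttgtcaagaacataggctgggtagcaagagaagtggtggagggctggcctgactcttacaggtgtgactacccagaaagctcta
Of all 100-base windows, 7.89% of those in *Tlr1* transcripts and 7.09% of those in *Tlr6* transcripts occurred exactly in the other receptor. For 50-base windows the shares were 13.6% and 12.3%. *Tlr1* also had 50-base windows in genes other than *Tlr6*: 513 of its 3332 windows (15.4%) occurred in at least 1 of 307 other genes, *Tlr6* included, and 454 of them in *Tlr6*. Read length and the handling of reads with several matches are not given in the sources used here, so levels of *Tlr1* and *Tlr6* are uncertain by what such reads contribute. *Tlr2*, *Tlr5*, *Tlr7*, *Tlr8*, *Tlr9* and *Tlr13* had no 50-base window in another gene. *Tlr4* had 12 such windows and none of 100 bases. *Tlr3* overlapped *Gm45542* on the opposite strand over 381 exonic bases, and *Gm45542* had 0 to 3 counts in every library.

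Promoter sequence is shown for the most variable receptors, *Tlr5* and *Tlr2*, and for *Tlr13*, the steadiest. The RefSeq windows (GRCm38.p6) run from 250 bases before a RefSeq start to 50 after it, and 8 of the 10 receptors had at least 1. *Tlr4* and *Tlr7* had none. The stretches below end 20 bases past the RefSeq start. They lie at chr1:182954538-182954807 on the plus strand, chr3:83841589-83841858 on the minus strand and chrX:106143025-106143294 on the plus strand. The gene annotation used for the counts places the *Tlr5* start at the same base. It places those of *Tlr2* (83841767) and *Tlr13* (106143204) further upstream, inside the stretches. Capitals mark matches on either strand to GGGANNNNCC, a short form of the NF-kappaB motif:
Tlr5: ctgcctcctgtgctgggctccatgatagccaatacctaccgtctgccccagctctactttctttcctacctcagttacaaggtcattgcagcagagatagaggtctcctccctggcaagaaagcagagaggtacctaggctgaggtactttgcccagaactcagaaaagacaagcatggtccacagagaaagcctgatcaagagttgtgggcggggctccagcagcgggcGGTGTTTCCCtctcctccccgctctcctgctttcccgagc
Tlr2: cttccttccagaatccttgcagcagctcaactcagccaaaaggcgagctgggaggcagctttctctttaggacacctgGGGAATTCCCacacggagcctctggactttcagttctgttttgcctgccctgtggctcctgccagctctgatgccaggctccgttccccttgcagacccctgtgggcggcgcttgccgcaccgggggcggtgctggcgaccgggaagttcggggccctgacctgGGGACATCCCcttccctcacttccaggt
Tlr13: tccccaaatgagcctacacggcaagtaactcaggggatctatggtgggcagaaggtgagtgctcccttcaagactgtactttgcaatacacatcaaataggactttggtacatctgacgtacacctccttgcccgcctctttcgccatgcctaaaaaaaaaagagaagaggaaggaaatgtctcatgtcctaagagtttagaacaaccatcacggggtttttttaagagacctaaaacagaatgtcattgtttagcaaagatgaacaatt
The *Tlr2* stretch held this motif at -172 and at -8 bases from the RefSeq start, and the *Tlr5* stretch at -20. The *Tlr2* match at -8 lies inside the gene as counted. None was found in *Tlr13*. The *Tlr3* window had 3 matches, at a coefficient of variation of its CPM over 6 libraries of 11.1%. The windows of *Tlr1* and *Tlr9*, at 17.6% and 22.5%, had none. Of all 32851 windows, 20.7% held at least 1. Whether these letters go with the spread between libraries was not tested. The letters GAGGAAGT, a form of the PU.1 motif, occurred in 1 of the windows of *Tlr1* and in that of *Tlr9*, against 3.20% of all windows. GAAANNGAAA, the core of the interferon-stimulated response element, occurred as 2 overlapping matches in 1 window of *Tlr6*, against 3.44% of all windows. *Tlr8* and *Tlr13* held none of these letters in their windows.

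All 10 receptors were detected in all 6 libraries, at very unequal levels. Between genes, levels were compared as CPM per kilobase of exon, shown in the plot of levels by receptor. By the mean of 6 libraries, 5 receptors stood close together at the top: *Tlr2* at 45.0, *Tlr7* at 39.9, *Tlr13* at 39.3, *Tlr8* at 38.6 and *Tlr1* at 36.4 CPM per kilobase. *Tlr4* followed at 19.7, then *Tlr6* at 7.99, *Tlr9* at 6.73 and *Tlr3* at 6.13, and *Tlr5* was lowest at 0.553 CPM per kilobase. The 6 highest receptors made up 90.6% to 91.5% of the summed per-kilobase level of the 10 in every library. The 5 endosomal receptors held 50.7% to 60.3% of it.

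**Figure D1:**
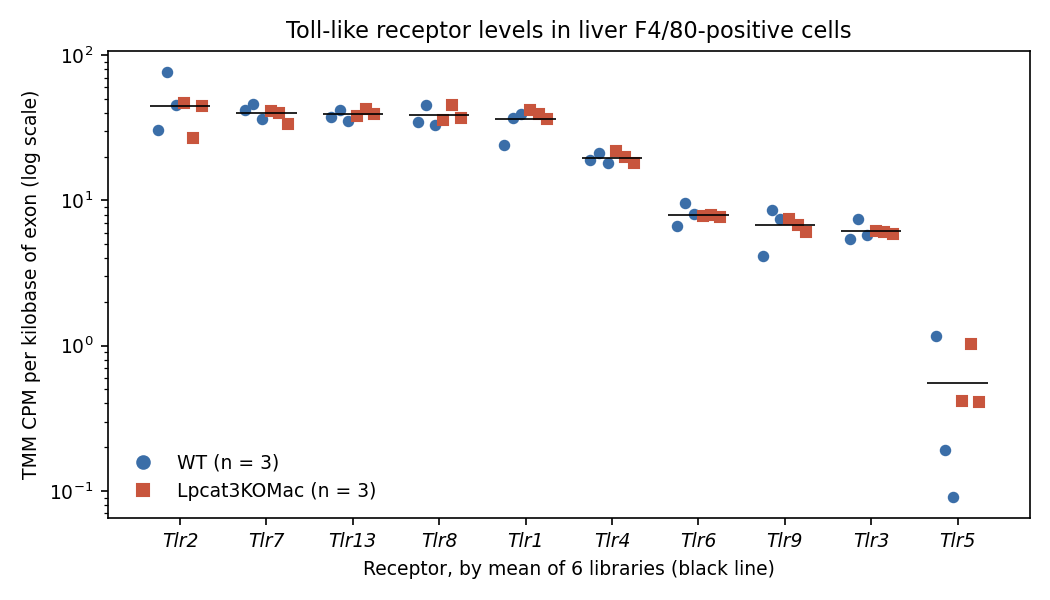
TMM-normalized CPM per kilobase of exon (log axis) for each receptor, with 1 point per library (circles WT, squares *Lpcat3KOMac*) and a black line at the mean of 6 libraries. *Tlr2*, *Tlr7*, *Tlr13*, *Tlr8* and *Tlr1* lie between 24.0 and 76.7, and *Tlr5* spreads from 0.0913 to 1.17.

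Neighbours in this order were compared within libraries by a two-sided exact sign-flip permutation test on log2 ratios, with adjustment over the 9 neighbouring pairs. With 6 libraries the smallest possible p of this permutation test is 0.03125. With 4 of the 9 pairs at that value it became 0.0703 after adjustment, so that no pair passed 0.05. Among the top 5 the order was not stable: each neighbour was above the next in 4 of 6 libraries, at geometric mean ratios of 1.01 to 1.07 on the per-kilobase scale. *Tlr1* was above *Tlr4* in 6 of 6 libraries, by 1.82-fold per kilobase. *Tlr4* was above *Tlr6* in 6 of 6, by 2.47-fold. *Tlr6* was above *Tlr9* in 6 of 6, by 1.21-fold. *Tlr9* was above *Tlr3* in 5 of 6, by 1.08-fold (exact permutation p = 0.375, adjusted 0.5625). *Tlr3* was above *Tlr5* in 6 of 6, by 15.5-fold. These 4 pairs with 1 order throughout each had the smallest possible exact permutation p. *Tlr2* was the highest receptor per kilobase in 4 of 6 libraries, at up to 26.1% of the sum in WT mouse 2. In WT mouse 1 and *Lpcat3KOMac* mouse 2, where it made up 14.9% and 11.3% of the sum, *Tlr7*, *Tlr13* and *Tlr8* were all above it.

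Of the surface receptors, *Tlr2* (ENSMUSG00000027995, chr3:83836272-83841767, minus strand), which binds bacterial lipoproteins together with TLR1 or TLR6, was at 92.4, 231 and 136 CPM in the WT libraries. In the *Lpcat3KOMac* libraries it was at 140, 80.7 and 134 CPM. The highest and the lowest library were thus WT mouse 2 and *Lpcat3KOMac* mouse 2, and the genotypes overlapped. The means were 153 ± 71.0 and 118 ± 32.7 CPM (SD, n = 3 each), with a log2 fold change of -0.37 (SE 0.39, 95% interval -1.34 to 0.59). Without WT mouse 2 the log2 fold change of *Tlr2* was 0.051. *Timd4*, a marker of long-lived resident Kupffer cells, was at 428, 938 and 344 CPM in WT and 478, 123 and 645 CPM in *Lpcat3KOMac* libraries, also highest in WT mouse 2 and lowest in *Lpcat3KOMac* mouse 2. This was not particular to *Timd4*. The markers *Clec4f*, *Vsig4*, *Adgre1*, *Cd5l* and *Marco* were each highest and lowest in the same libraries. The summed Kupffer cell list was at 34015 CPM in WT mouse 2 and 18864 CPM in *Lpcat3KOMac* mouse 2. Over the 6 libraries the Pearson correlation of log2 CPM of *Tlr2* was 0.82 with *Timd4* and -0.88 with the hepatocyte transcript *Alb*. These are descriptions over points that share a library's composition and normalization.

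*Tlr1* (ENSMUSG00000044827, chr5:64924679-64933563, minus strand) was at 80.4, 125 and 131 CPM in WT and at 141, 132 and 122 CPM in *Lpcat3KOMac* libraries. WT mouse 1 stood below the other 5, which lay within 122 to 141 CPM. The means were 112 ± 27.5 and 132 ± 9.78 CPM (SD, n = 3 each), with a log2 fold change of 0.23 (SE 0.20, 95% interval -0.25 to 0.72). Without WT mouse 1 the log2 fold change of *Tlr1* was 0.045. *Tlr6* (ENSMUSG00000051498, chr5:64952031-64960097, minus strand) was at 24.9, 36.0 and 30.3 CPM in WT and at 29.3, 29.5 and 28.7 CPM in *Lpcat3KOMac* libraries. All 3 *Lpcat3KOMac* values lay inside the WT range, at means of 30.4 ± 5.55 and 29.2 ± 0.398 CPM (SD, n = 3 each). The log2 fold change of *Tlr6* was -0.06 (SE 0.15, 95% interval -0.42 to 0.30).

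Ratios within a library compare the partners directly, without dependence on library size. *Tlr1* counts over *Tlr2* counts were 0.870, 0.538 and 0.963 in WT and 1.01, 1.64 and 0.909 in *Lpcat3KOMac* libraries. The genotypes overlapped through WT mouse 3 and *Lpcat3KOMac* mouse 3, and the log2 difference was 0.58 (SE 0.37, exact permutation p = 0.2, adjusted 0.5 over 5 sums and ratios). *Tlr1* over *Tlr6* was 3.23, 3.46 and 4.32 in WT and 4.81, 4.49 and 4.24 in *Lpcat3KOMac* libraries, a log2 difference of 0.31 (SE 0.14, exact permutation p = 0.2, adjusted 0.5). *Tlr6* over *Tlr2* had a log2 difference of 0.27 (SE 0.35, exact permutation p = 0.6, adjusted 1). With 3 mice against 3 the smallest possible exact p is 0.1.

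*Tlr4* (ENSMUSG00000039005, chr4:66827584-66930284, plus strand), the receptor for lipopolysaccharide, was among the steadiest. It was at 105, 118 and 101 CPM in WT and at 123, 110 and 100.4 CPM in *Lpcat3KOMac* libraries. No library stood apart and the genotypes overlapped over most of their range, at means of 108 ± 8.75 and 111 ± 11.1 CPM (SD, n = 3 each). Its log2 fold change was 0.04 (SE 0.11), and the 95% interval of -0.22 to 0.31 spans 0.856-fold to 1.24-fold. The coefficient of variation of *Tlr4* over 6 libraries was 8.34%.

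*Tlr5* (ENSMUSG00000079164, chr1:182954788-182976044, plus strand), the receptor for bacterial flagellin, was the lowest and the least even of the 10. Its counts were 364, 46 and 20 in WT and 116, 257 and 93 in *Lpcat3KOMac* libraries. As CPM these were 5.60, 0.918 and 0.437 in WT and 2.00, 4.96 and 1.98 in *Lpcat3KOMac* libraries, a 12.8-fold range. WT mouse 1 and *Lpcat3KOMac* mouse 2 were highest, and the WT range enclosed all *Lpcat3KOMac* values. *Tlr5* had a log2 fold change of 0.35 (SE 0.99), with a 95% interval of -2.10 to 2.81. Without WT mouse 1 it was 2.13, and without *Lpcat3KOMac* mouse 2 it was -0.23. The hepatocyte transcript *Alb* was highest in the same 2 libraries, at 13053.5, 1204.6 and 1319.0 CPM in WT and 3130.7, 9288.6 and 3137.6 CPM in *Lpcat3KOMac* libraries, as the plot of *Tlr5* and *Alb* by library shows. Per 10000 *Alb* counts, *Tlr5* was at 4.29, 7.62 and 3.32 in WT and 6.38, 5.34 and 6.30 in *Lpcat3KOMac* libraries, a 2.30-fold range. Their correlation in log2 CPM was 0.95 over 6 libraries, and the part of hepatocyte RNA in the *Tlr5* level was not tested.

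**Figure D2:**
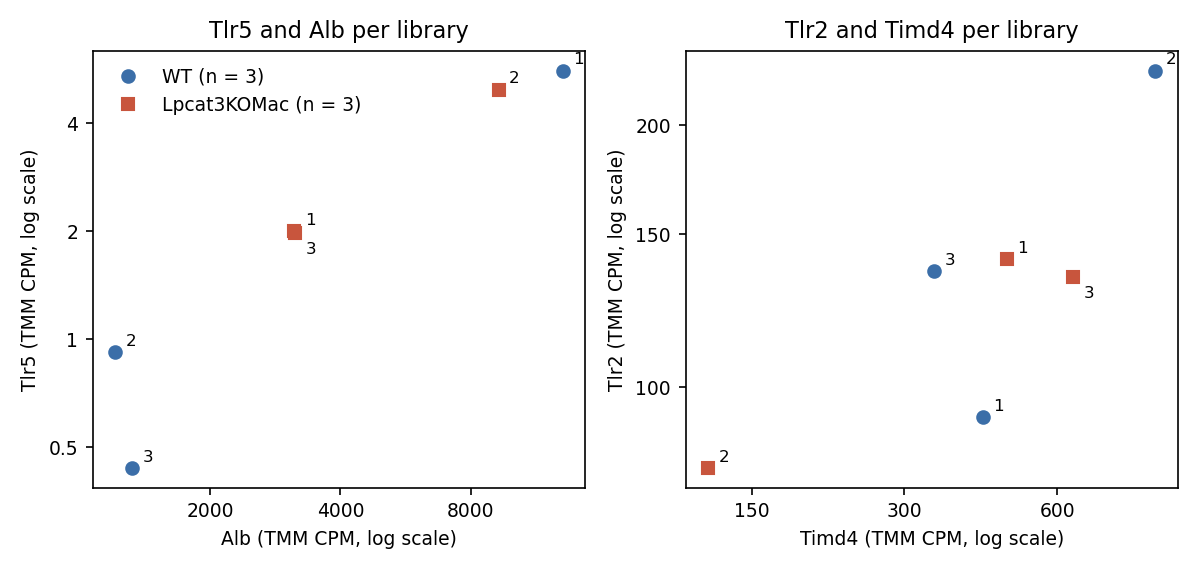
Left, *Tlr5* against the hepatocyte transcript *Alb*; right, *Tlr2* against the Kupffer cell transcript *Timd4*, both in TMM-normalized CPM on log axes, with 1 numbered point per mouse (circles WT, squares *Lpcat3KOMac*). *Tlr5* and *Alb* are both highest in WT mouse 1 and *Lpcat3KOMac* mouse 2, and *Tlr2* and *Timd4* are both highest in WT mouse 2 and lowest in *Lpcat3KOMac* mouse 2. The other Kupffer cell markers, not drawn, were likewise highest in WT mouse 2 and lowest in *Lpcat3KOMac* mouse 2.

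Of the endosomal receptors, *Tlr7* and *Tlr8* recognize single-stranded RNA or its breakdown products and lie beside each other on the minus strand of the X chromosome. *Tlr7* (ENSMUSG00000044583, chrX:167304929-167330558) was at 171, 187 and 149 CPM in WT and at 169.758, 163 and 138 CPM in *Lpcat3KOMac* libraries. The genotypes overlapped, at means of 169 ± 19.1 and 157 ± 16.4 CPM (SD, n = 3 each), and the log2 fold change was -0.11 (SE 0.13, 95% interval -0.42 to 0.20). *Tlr8* (ENSMUSG00000040522, chrX:167242696-167264329) was at 125, 162 and 118 CPM in WT and at 129, 164 and 133 CPM in *Lpcat3KOMac* libraries. Mouse 2 was the highest of either genotype, and the means were 135 ± 23.6 and 142 ± 19.1 CPM (SD, n = 3 each). For *Tlr8* the log2 fold change was 0.07 (SE 0.16, 95% interval -0.33 to 0.47).

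*Tlr13* (ENSMUSG00000033777, chrX:106143204-106160493, plus strand), which recognizes bacterial ribosomal RNA in mice and has no human counterpart, was the steadiest receptor. It was at 154, 172 and 145 CPM in WT and at 156, 175 and 161 CPM in *Lpcat3KOMac* libraries, a 1.21-fold range and a coefficient of variation of 7.16%. The genotypes overlapped, at means of 157 ± 13.7 and 164 ± 10.1 CPM (SD, n = 3 each). The log2 fold change was 0.07 (SE 0.10), and its 95% interval of -0.17 to 0.31 spans 0.887-fold to 1.24-fold.

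*Tlr3* (ENSMUSG00000031639, chr8:45395665-45411080, minus strand), the receptor for double-stranded RNA, was at 28.4, 38.7 and 30.2 CPM in WT and at 31.9, 31.6 and 30.7 CPM in *Lpcat3KOMac* libraries. As for *Tlr6*, the *Lpcat3KOMac* values were close together and inside the WT range, at means of 32.4 ± 5.50 and 31.4 ± 0.595 CPM (SD, n = 3 each). The log2 fold change of *Tlr3* was -0.05 (SE 0.13, 95% interval -0.38 to 0.28). *Tlr9* (ENSMUSG00000045322, chr9:106222598-106226883, plus strand), the receptor for unmethylated CpG DNA, was at 14.4, 29.8 and 25.8 CPM in WT and at 25.8, 23.7 and 21.1 CPM in *Lpcat3KOMac* libraries. WT mouse 1 was again lowest, and the genotypes overlapped at means of 23.3 ± 7.97 and 23.5 ± 2.36 CPM (SD, n = 3 each). The log2 fold change of *Tlr9* was 0.01 (SE 0.27, 95% interval -0.67 to 0.69).

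Across the family, 0 of the 10 receptors passed edgeR's adjusted p under 0.05, against 0% of all genes tested, and every receptor had an adjusted p of 1 after rounding. None had an unadjusted p under 0.05, against 2.64% of all genes, and DESeq2 and limma-voom also called 0 receptors. In none did the genotypes fail to overlap, against 7.49% of all genes. *Lpcat3KOMac* was higher in 6 and lower in 4, with a median log2 fold change of 0.03 beside -0.04 over all genes tested. With total counts in place of TMM, which moves the median of all genes to 0.06, 8 were higher. The tally and the sign of the median rested on single mice: without WT mouse 3, 3 receptors were higher and the median was -0.039, and without *Lpcat3KOMac* mouse 2, 4 were higher and it was -0.031. Without WT mouse 1, 5 were higher and the median was -0.040. Without *Lpcat3KOMac* mouse 1, 5 were higher and it was -0.0066. Without WT mouse 2, 8 were higher and it was 0.10. The intervals differ widely in width, as the plot of differences shows. Those of *Tlr3*, *Tlr4*, *Tlr6*, *Tlr7*, *Tlr8* and *Tlr13* reach from 0.749-fold to 1.39-fold at the widest. Those of *Tlr1* and *Tlr9* run from 0.839-fold to 1.65-fold and from 0.629-fold to 1.61-fold. Those of *Tlr2*, which begins at 0.396-fold, and of *Tlr5*, which begins at 0.233-fold, were the widest. The summed CPM of the 10 was 922 ± 157 in WT and 911 ± 38.2 in *Lpcat3KOMac* libraries (SD, n = 3 each), a log2 difference of -0.0049 (SE 0.14, exact permutation p = 1). Endosomal over surface receptor counts were 1.59, 1.15 and 1.18 in WT and 1.18, 1.56 and 1.25 in *Lpcat3KOMac* libraries, a log2 difference of 0.03 (SE 0.19, exact permutation p = 0.9, adjusted 1).

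**Figure D3:**
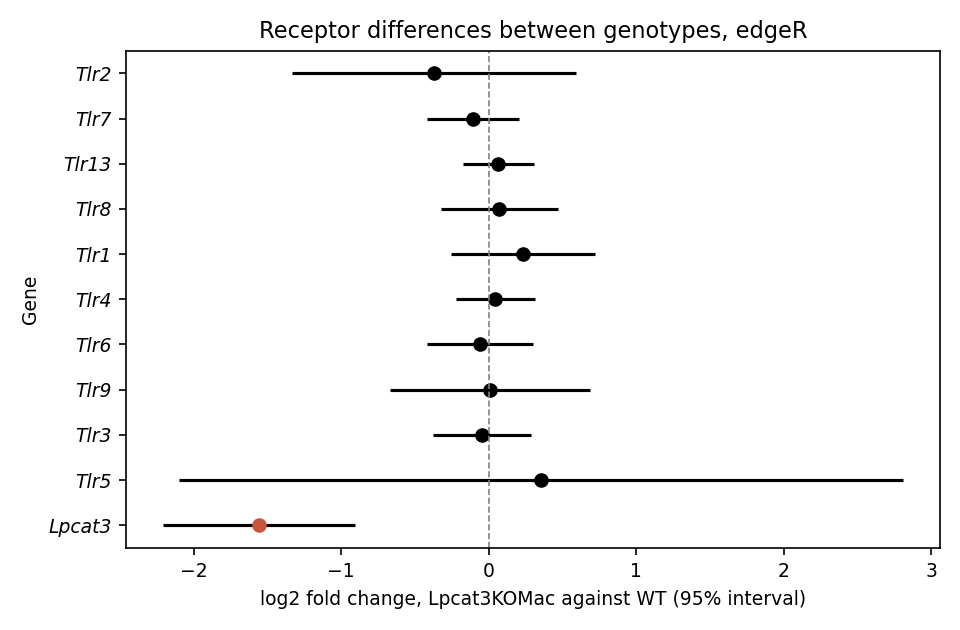
edgeR log2 fold change of *Lpcat3KOMac* against WT for each receptor and for *Lpcat3*, with 95% intervals as horizontal lines. Every receptor's interval crosses 0, and that of *Lpcat3* runs from -2.21 to -0.90.

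Single mice departed from the rest in several receptors at once, as the map of single libraries shows. WT mouse 1 was below the mean of 6 libraries by a log2 value of -0.56 for *Tlr2*, -0.60 for *Tlr1* and -0.70 for *Tlr9*. WT mouse 2 was above the mean for 9 receptors, and *Tlr5* was the exception at -1.53. The highest Pearson correlations of log2 CPM between receptors were 0.97 for *Tlr13* and *Tlr8* and 0.93 for *Tlr6* and *Tlr3*. Next were 0.91 for *Tlr6* and *Tlr9* and 0.88 for *Tlr1* and *Tlr9* (6 libraries, not independent of genotype, depth and composition). All other pairs lay between -0.73, for *Tlr2* and *Tlr5*, and 0.795, for *Tlr2* and *Tlr6*. *Tlr6* and *Tlr9* each had a correlation of -0.79 with *Alb*. The genes whose log2 CPM followed each receptor most closely among 16134 were *Cep112* for *Tlr2* (0.999), *Tsg101-ps* for *Tlr1* (0.992), *Gbgt1* for *Tlr6* (0.996), *Gm21092* for *Tlr4* (0.991) and *Atp7b* for *Tlr5* (0.9995). For the endosomal receptors they were *Wrn* for *Tlr3* (0.990), *Rnf214* for *Tlr7* (0.990), *Prmt5* for *Tlr8* (0.987), *Bcl3* for *Tlr9* (0.996) and *Gm28536* for *Tlr13* (0.991). The number of genes with a correlation over 0.95 ran from 6 for *Tlr13*, 8 for *Tlr8* and 9 for *Tlr4* to 169 for *Tlr2* and 841 for *Tlr5*. Each nearest gene is the highest of 16134 correlations over only 6 libraries, where unrelated genes can also reach high values. The level that unrelated genes reach was not computed, so these genes, these numbers and the correlations between receptors do not show shared regulation.

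**Figure D4:**
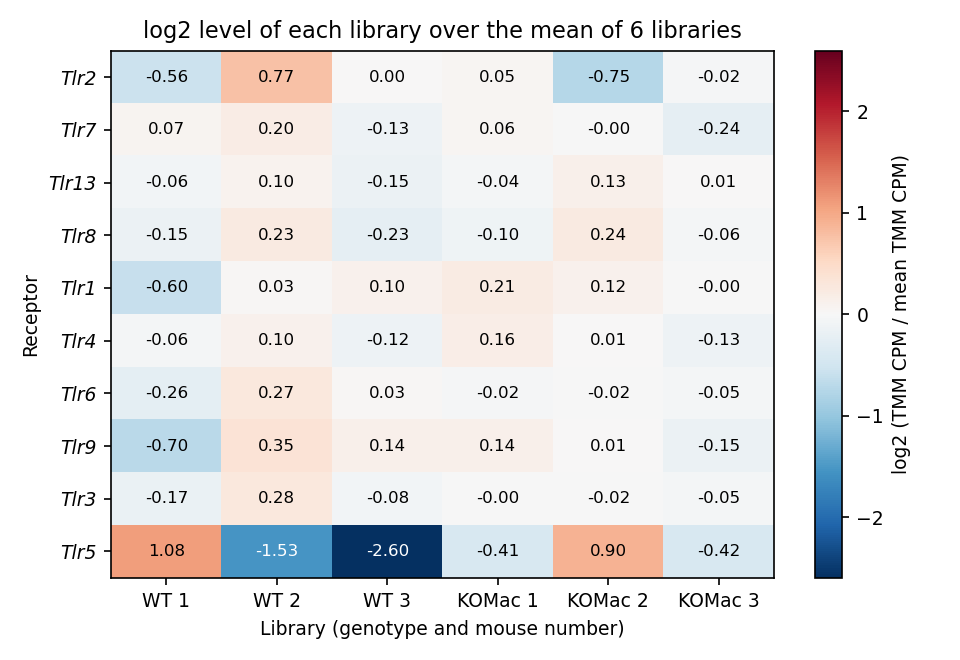
log2 of each library's TMM-normalized CPM over the mean of 6 libraries (columns: WT and *Lpcat3KOMac* mice; rows: receptors by mean per-kilobase level), with colour from blue (below the mean) to red (above). *Tlr5* runs from -2.60 to 1.08, *Tlr2* from -0.75 to 0.77 and *Tlr13* from -0.15 to 0.13.

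A list of 48 other genes of the pathway was tested in the same fit, and 0 were called. The list was chosen with earlier results of these data known, so its shares below are descriptions and not a test of the pathway. In *Lpcat3KOMac* libraries 38 of the 48 were lower and 10 higher, with a median log2 fold change of -0.10 beside -0.04 over all genes. With total counts in place of TMM, 25 of the 48 were lower. At an unadjusted p under 0.05 there were 7 genes, or 14.6%, all lower, against 1.57% of all genes that were lower at this level. This count moved with the settings, as did the share of all genes under 0.05, which was 2.64% in the fit reported. It was 1 without WT mouse 2 (1.37% of all genes), 1 in the fit blocked by replicate number (0.855%) and 0 with total counts in place of TMM (1.97%). It was 7 without WT mouse 1 (12.3%) and 3 without WT mouse 3 (3.28%). Without *Lpcat3KOMac* mice 1, 2 and 3 in turn it was 2 each time (1.09%, 1.48% and 2.31%). In 8 of the 48 the genotypes did not overlap, all lower in *Lpcat3KOMac*, against 7.49% of all genes in either direction. By role, these low unadjusted p-values fell on 3 of 6 co-receptors, 3 of 5 chaperones and trafficking proteins and 1 of 5 transcription factors. None fell on the 5 adaptors, 14 kinases and ligases, 6 inhibitors, 5 proteases or the pair *Tlr11* and *Tlr12*.

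**Figure D5:**
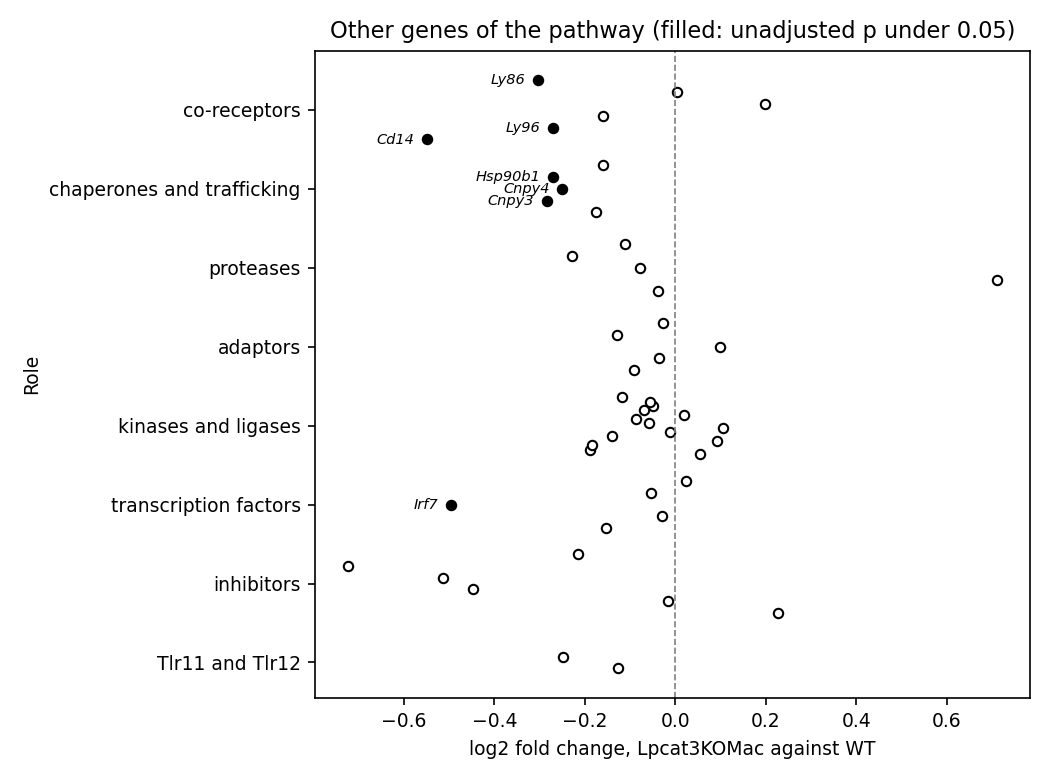
edgeR log2 fold change of *Lpcat3KOMac* against WT for 48 other pathway genes, 1 point each, in rows by role (vertical offsets only separate the points). Filled points have an unadjusted p under 0.05, and all 7 lie below 0, from -0.55 for *Cd14* to -0.25 for *Cnpy4*; none had an adjusted p under 0.05.

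Among the co-receptors, *Cd14*, which hands lipopolysaccharide to TLR4, was at 169.89, 229 and 203 CPM in WT and at 149.66, 108 and 153 CPM in *Lpcat3KOMac* libraries. Each *Lpcat3KOMac* value was below each WT value, with a log2 fold change of -0.55 (SE 0.18, edgeR unadjusted p = 0.0230, adjusted p of 1 after rounding). *Ly96*, which encodes MD-2, the lipopolysaccharide-binding partner of TLR4, was at 25.4, 27.2 and 24.7 CPM in WT and at 21.9, 19.8 and 22.3 CPM in *Lpcat3KOMac* libraries. The genotypes again did not overlap, with a log2 fold change of -0.27 (SE 0.09). *Ly86*, which encodes MD-1, the partner of the TLR4 relative CD180, was at 326, 373 and 402 CPM in WT and at 298, 304 and 290.5 CPM in *Lpcat3KOMac* libraries. Its log2 fold change was -0.30 (SE 0.10), and *Ly86* was named for its low unadjusted p in this fit. *Cd14* and *Ly96* were named whatever their values. In 7.49% of all genes the genotypes did not overlap. *Tlr4* itself had no such pattern, as given above.

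Among the proteins that fold and carry the receptors, *Hsp90b1* (the chaperone gp96) was at 1421, 1252 and 1297 CPM in WT and at 1094, 1069 and 1129.91 CPM in *Lpcat3KOMac* libraries. *Cnpy3*, the co-chaperone that works with gp96 on these receptors, was at 108, 129 and 113 CPM in WT and at 93.6, 93.0 and 101 CPM in *Lpcat3KOMac* libraries. *Cnpy4*, its relative, was at 23.3, 25.2 and 26.2 CPM in WT and at 21.6, 20.02 and 21.1 CPM in *Lpcat3KOMac* libraries. None of these 3 overlapped between genotypes, against 7.49% of all genes, and their log2 fold changes were -0.27, -0.28 and -0.25 (SE 0.09 each). They were named for an unadjusted p under 0.05 in this fit, so their lack of overlap adds no separate support. With total counts in place of TMM their edgeR unadjusted p was 0.109, 0.148 and 0.230. *Unc93b1*, which carries the endosomal receptors out of the endoplasmic reticulum, was at 921, 1241 and 1201 CPM in WT and at 998, 887 and 1092 CPM in *Lpcat3KOMac* libraries. Its genotypes overlapped, with a log2 fold change of -0.18 (SE 0.15).

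Downstream, the adaptor *Myd88* was at 83.2, 102 and 94.7 CPM in WT and at 88.2, 89.9 and 85.0 CPM in *Lpcat3KOMac* libraries, with overlap and a log2 fold change of -0.09 (SE 0.10). *Irf7*, the factor that drives type I interferon genes after TLR7 and TLR9 signals, was at 714, 694 and 546 CPM in WT and at 567, 383 and 436 CPM in *Lpcat3KOMac* libraries. The highest *Lpcat3KOMac* value exceeded the lowest WT value, and the log2 fold change was -0.50 (SE 0.19, edgeR unadjusted p = 0.0376, adjusted p of 1 after rounding). The remaining mouse receptors, *Tlr11* and *Tlr12*, recognize profilin of *Toxoplasma*. *Tlr12* was at 19.5 to 44.6 CPM per kilobase, above *Tlr4* on that scale in every library, and *Tlr11* at 1.06 to 2.04 CPM per kilobase. Their log2 fold changes were -0.25 (SE 0.33) and -0.13 (SE 0.32), and both overlapped between genotypes.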

How the data were processed

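RNA of liver F4/80-positive cells from 6 mice was sequenced after poly-A selection, with 1 library per mouse. The authors deposited read counts per gene for each library, without normalization. The submitters' processing notes name Trimmomatic 0.36, STAR 2.5.2b, featureCounts of Subread 1.5.2 and GRCm38. The strand setting, the read length and the handling of reads with several matches are not given in the sources used here. Reads of opposite-strand genes and near-identical stretches can therefore be misassigned.

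Total counts per library lay between 44954224 and 71392812, and every receptor but *Tlr5* (20 to 364 counts) had at least 938 counts in each library, so that sampling of reads adds little to the spread between mice. Symbols were taken from GENCODE M21, in which 49056 of 49315 identifiers were found, and the receptors had identical positions there. Genotype and replicate number came from the labels. P-values of the edgeR fit set the genotype difference against the spread between these mice, with dispersion moderated across genes. Exact permutation p-values give the share of relabellings or sign flips that reach a difference at least as large.

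Counts were compared with edgeR 4.0.16 (R 4.3.3) by the quasi-likelihood test with TMM normalization, edgeR's own low-count filter (minimum count 10) and robust dispersion. The model held genotype alone. Benjamini-Hochberg adjustment ran over 16134 genes, and called genes are those with an adjusted p under 0.05. Intervals of 95% use the t distribution with the fit's moderated degrees of freedom. Sums and ratios were compared by two-sided exact permutation tests. Per-kilobase levels use the exonic length of the count tables. The steps were tested on simulated data with a smaller spread between libraries than these data have. That test therefore does not measure how many true differences would be found here.

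The receptors and gene lists were chosen with earlier results of these data known. Named were all receptors, *Lpcat3* and *Lyz2* as checks, *Cd14*, *Ly96*, *Unc93b1*, *Myd88*, *Tlr11* and *Tlr12* whatever their values, up to 6 other pathway genes with the smallest unadjusted p under 0.05, and the nearest gene by correlation. Alternatives were size factors from DESeq2, scaling by total counts, DESeq2 1.42.0 and limma-voom (limma 3.58.1) as other tools, no filter, a filter of at least 10 counts in each library, dispersion without robustness, the replicate block, a hepatocyte covariate, a length offset and leaving out each mouse. The lipid, PCR and histology measurements of the study were not analysed here.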

Additional observations from a re-analysis of the deposited data

How the results depend on the processing

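No receptor and none of the 48 pathway genes was called under any of the 16 alternatives to the edgeR fit. Over all genes, DESeq2 called 15, among them *Lpcat3* and *Lyz2*, and 0 were called otherwise. *Tlr1* and *Tlr13* kept their direction under all 16, in fits that share most of their mice. With each mouse left out in turn their log2 fold changes were 0.045 to 0.36 and 0.012 to 0.14. With total counts alone, which moved the median log2 fold change of all genes from -0.04 to 0.06, *Tlr6* was at 0.028 and *Tlr3* at 0.045, and with the hepatocyte covariate *Tlr6* was at 0.011. The cause was not tested. Leaving out each mouse in turn gave log2 fold changes of -0.63 to 0.051 for *Tlr2*, -0.18 to 0.079 for *Tlr6*, -0.0051 to 0.14 for *Tlr4* and -0.23 to 2.13 for *Tlr5*. The ranges were -0.13 to 0.099 for *Tlr3*, -0.19 to 0.00323 for *Tlr7*, -0.027 to 0.22 for *Tlr8* and -0.24 to 0.22 for *Tlr9*, and -0.34 to 0.14 for *Tlr11* and -0.48 to 0.088 for *Tlr12*. A receptor had an unadjusted p under 0.05 in 2 settings: *Tlr1* with the hepatocyte covariate (log2 fold change 0.37), when 9.24% of all genes were under 0.05, and *Tlr5* without WT mouse 1 (2.13), when 12.3% were. The deviations of same-numbered mice had correlations of -0.303 and -0.596 for numbers 1 and 2 and 0.3603 for number 3, beside a mean of 0.110 for different numbers, so that not every pair moved together and the numbers were not taken to pair the mice. With the replicate block 0 genes were called, 138 had an unadjusted p under 0.05 against 426 without it, and the median log2 fold change of the receptors was 0.05. *Tlr5* rested on 20 to 364 counts per library and every other receptor on at least 938.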
